A study of Mus musculus with 58 samples.

Results

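The retina of control mice was compared between ZT17, the middle of the dark phase, and ZT5, the middle of the light phase, where ZT counts hours from lights on. The members are the 5 control libraries of ZT17 and the 6 control libraries of ZT5, taken by their titles, so 11 of the 58 libraries of the series. The study followed gene expression in the retina over 24 h in control and diabetic mice, and this pair of times asks how far the transcriptome of the healthy retina moves between day and night. Control mice were the male wild type littermates (C57/BL/6) of male heterozygous Ins2Akita mice, which carry an insulin 2 mutation that makes the hormone misfold and the animals hyperglycemic. All animals were 4 months old, were kept in 12 h of light and 12 h of darkness, were perfused with cold saline, and at night were handled under dim red light. Total RNA of individual retinas was depleted of ribosomal RNA and sequenced. The libraries of a time point were described as biological replicates, but no label ties a library to an animal. The 6 control libraries of ZT5 are more than the study's methods state for a time point. The p-values therefore measure the spread between libraries, which was estimated within the groups of all 58 libraries and not from these 11 alone. Retinas of a time point were dissected within about an hour of each other, so that dissection session and time of day cannot be told apart.

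The retina holds its own circadian clock. In that clock, ARNTL and CLOCK activate the period and cryptochrome genes, whose proteins repress their own transcription, and the REV-ERB and ROR receptors set the level of Arntl. By day, light raises dopamine, which lowers cyclic AMP in photoreceptors through the D4 receptor, and at night cyclic AMP is high. Rods carry their largest ion current in darkness, when the channels of the outer segment are open, and photoreceptors depend on aerobic glycolysis.

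Depth was 15656408 to 19929725 counted reads at ZT17 and 7773117 to 18020493 at ZT5, with an adjusted exact permutation p of 0.0812 (two-sided, 3 library measures). The GC content of genes moved with the groups. Within the ZT17 group, replicates 1 and 3 stood apart, with genes in the highest of 5 equal groups by exonic GC content raised against those in the lowest by 0.59 and 0.78 on the log2 scale relative to the mean of the 11 libraries, while the other 9 libraries lay between -0.31 and 0.12. The median log2 fold change of ZT17 over ZT5 was -0.23 in the lowest and 0.14 in the highest GC group, and without replicates 1 and 3 it was -0.03 and 0.02. Counts over gene lists and genes given with an adjusted p are therefore also shown with a correction for GC content and gene length, or without these 2 libraries, where that ends a call or moves a value by over 1.5 times, and the comparison without them is called the 9-library comparison. It was added after the trend was seen, and the part of the trend in any single result was not tested. ZT17 replicate 5 held 32779.6 summed normalized counts of lens markers, against 26.1 to 371 in the other 10 libraries.

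**Figure D1:**
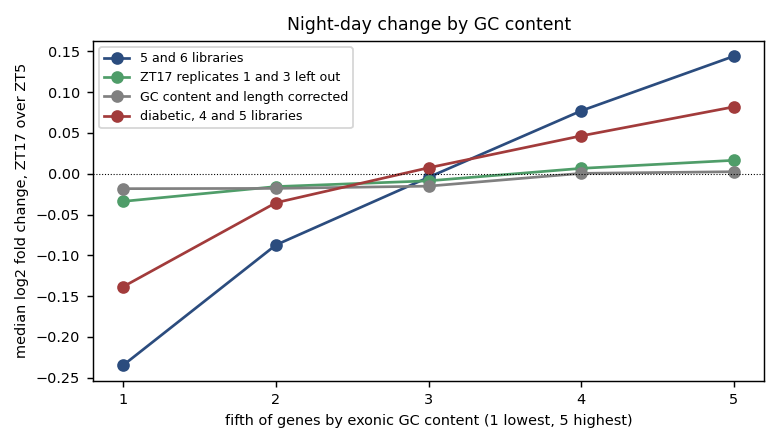
Median log2 fold change of ZT17 over ZT5 (vertical axis) in 5 equal groups of genes by exonic GC content (horizontal axis, lowest to highest), for all 11 control libraries, for 9 of them, after correction and in diabetic retinas. With all 11 libraries the line climbs from -0.23 to 0.14, and it is nearly flat without ZT17 replicates 1 and 3 or after correction.

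Of 19120 genes tested, 1457 were higher and 1437 lower at ZT17 at an adjusted p under 0.05 (edgeR quasi-likelihood test with Benjamini-Hochberg adjustment), which is 15.1% of the genes. Fitted to the 11 libraries alone, the model gave 1076 higher and 878 lower genes. The changes were mostly small. The median log2 fold change was 0.34 among the higher and -0.40 among the lower genes, and 78 higher and 146 lower genes changed by more than 1 on that scale. After the correction, 1504 genes were higher and 1486 lower (7.87% and 7.77% of genes), and 1097 and 1054 genes were called the same way in both fits. Without ZT17 replicates 1 and 3, 467 and 446 genes passed, 2.44% and 2.33%, or 4.78% together. The 2 groups of libraries did not overlap in 729 of the higher and 584 of the lower genes, against 7.69% of all genes tested, 4.28% upwards and 3.4% downwards.

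The same 2 times were sampled in diabetic mice, with 4 and 5 other libraries. There 734 genes were higher and 691 lower at ZT17, 7.45% of the genes (3.84% and 3.61%). The diabetic calls numbered 1425 in all, 2186 after the correction and 948 after thinning the counts to the depth of the smallest library, and the shares below are those without either. Of the genes higher in control retinas, 487 were called higher in diabetic retinas too, which is 33.4% of the control list and 66.3% of the diabetic list. Of the lower genes it was 399, or 27.8% and 57.7%. The direction in diabetic retinas matched for 96.9% of the higher and 96.4% of the lower genes, and for 75.8% of all genes tested. The GC trend was also present in the diabetic contrast, with a Spearman correlation of 0.31 between GC content and log2 fold change across 18515 genes, and 0.47 in control, and its part in this match was not tested.

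The genes of largest change named here were chosen among called genes whose 2 groups of libraries did not overlap, so that the lack of overlap is no result for them. Irf7, an interferon regulatory transcription factor (chromosome 7, 141262706 to 141266481), had 589, 444, 880.2, 877 and 750.0 normalized counts in the 5 ZT17 libraries and 124 to 176 (median 153) in the 6 ZT5 libraries. The log2 fold change was 2.24 ± 0.18 (SE, adjusted p = 1.06e-13). Sik2, a kinase of the AMPK family that responds to cyclic AMP (chromosome 9, 50892801 to 51009073), had 3462, 3337, 3956, 4616 and 4690.2 at ZT17 and 1642 to 1977 (median 1787) at ZT5, a log2 fold change of 1.16 ± 0.09 (SE, adjusted p = 8.7e-14). The palmitoyltransferase gene Zdhhc5 (chromosome 2, 84687970 to 84715180) had the smallest p-value of all the named genes that rose. Its levels were 6413, 5814, 7395, 6250.1 and 6753 at ZT17 and 2833 to 3518 (median 3241) at ZT5, with a log2 fold change of 1.01 ± 0.07 (SE, adjusted p = 1.41e-14). Each of these 3 calls held in all 26 alternatives. Diabetic retinas showed log2 fold changes of 2.38, 1.05 and 1.00 for Irf7, Sik2 and Zdhhc5.

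Thbs1, which encodes the matrix protein thrombospondin 1, was higher by 1.33 ± 0.24 (SE, adjusted p = 0.000101) on the log2 scale, from 219 to 395 normalized counts at ZT17 and 80.6 to 172 (median 115) at ZT5. The immediate early genes Egr1 and Fos were named by the same rule of largest change. Egr1 had 2950.1, 2593, 4007, 2095 and 2917 at ZT17 and 209 to 1291 (median 1174) at ZT5, with a log2 fold change of 1.62 ± 0.55 (SE, adjusted p = 0.0375). Fos changed by 1.10 ± 0.34 (SE, adjusted p = 0.0249). For both, ZT5 replicate 1 was the lowest library, at 209 for Egr1 and 102 for Fos. Egr1 lost its call in 6 and Fos in 5 of the 26 alternatives, and without ZT17 replicates 1 and 3 their log2 fold changes were 1.43 (adjusted p = 0.207) and 0.98 (adjusted p = 0.159).

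**Figure D2:**
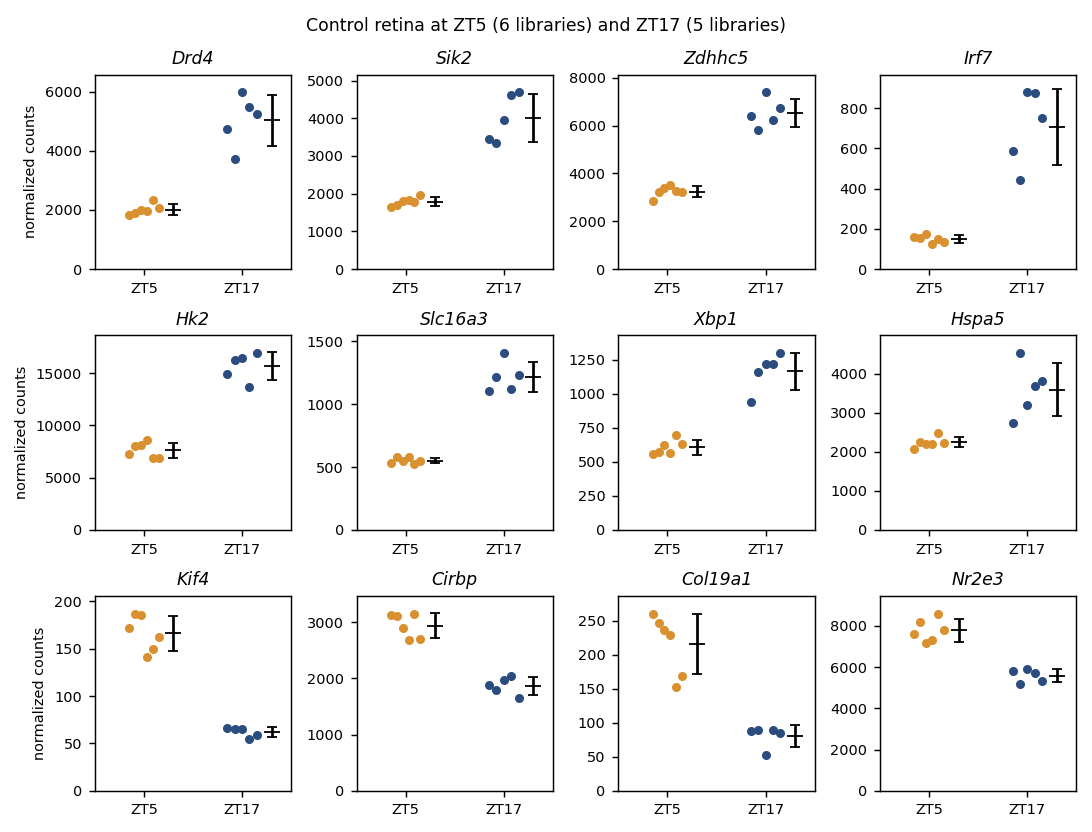
Normalized counts (vertical axes, from 0) of 12 genes in each control library at ZT5 (6 points) and ZT17 (5 points), with the mean and SD beside the points. 8 genes are higher and 4 lower at ZT17, and for those chosen by largest change the naming rule required that the 2 groups do not overlap.

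Among the genes lower at night, Kif4, a kinesin of chromosome condensation and cell division (chromosome X, 100625737 to 100727214), had 66.2, 64.8, 65.7, 54.5 and 59.2 normalized counts at ZT17 and 141 to 187 (median 167) at ZT5. Its log2 fold change was -1.42 ± 0.18 (SE, adjusted p = 1.44e-07). In diabetic retinas it was -0.37 ± 0.20 (SE, adjusted p = 0.276), and the unadjusted p of the difference between the genotypes was 0.00024 (adjusted p = 0.459). Col19a1, a collagen gene (chromosome 1, 24261890 to 24587472), had 87.3, 89.7, 52.4, 88.7 and 84.1 at ZT17 and 152 to 259.7 (median 232) at ZT5, with a log2 fold change of -1.43 ± 0.22 (SE, adjusted p = 7.34e-06). Glmn, whose product glomulin binds cullin-RING ubiquitin ligases, fell by 1.31 on the log2 scale (SE 0.19, adjusted p = 3.13e-06). Its lowest levels were those of ZT17 replicates 1 and 3, at 469 and 344.

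Cirbp, which encodes a cold-inducible RNA-binding protein (chromosome 10, 80165985 to 80172786), had 1879, 1784, 1973, 2034 and 1652 at ZT17 and 2678 to 3145 (median 2994) at ZT5. The log2 fold change was -0.66 ± 0.08 (SE, adjusted p = 4.73e-08), with no overlap, and -0.37 ± 0.09 (SE, adjusted p = 0.00428) in diabetic retinas. Over the control time points its mean was highest at ZT5, 2937 ± 216 (SD, n = 6), and lowest at ZT17, 1864 ± 152 (SD, n = 5). The kinase Dyrk2 (-0.49 ± 0.06), the membrane trafficking gene Ehd4 (-0.65 ± 0.08), the RNA polymerase II phosphatase gene Rpap2 (-0.70 ± 0.09) and Glb1l2 (-0.54 ± 0.07) had small errors and fell with adjusted p from 5.12e-08 to 2.23e-07 (log2 fold change ± SE). Also lower were Arhgef33 (-0.85 ± 0.13), Jchain (-0.74 ± 0.15), the mitochondrial tRNA methyltransferase gene Nsun3 (-0.71 ± 0.14) and the antisense transcript Cep83os (-0.70 ± 0.13). The correction moved Jchain to -0.43, and reads of Cep83os may be shared with the overlapping Cep83.

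Of the 9 tested activators and nuclear receptors of the clock 2 rose and none fell (1 higher and 0 lower in the 9-library comparison), and of the 8 period and cryptochrome repressors 2 rose and 1 fell (0 higher and 1 lower in the 9-library comparison), where 7.62% of all genes rose and 7.52% fell. Cry1 had 826, 871, 899.7, 861 and 839.6 normalized counts at ZT17 and 664 to 779 (median 714) at ZT5, a log2 fold change of 0.26 ± 0.07 (SE, adjusted p = 0.0138) with no overlap. Per2 changed by 0.43 ± 0.12 (SE, adjusted p = 0.0135), but the groups overlapped and ZT17 replicate 1 was the highest library at 1012. Without ZT17 replicates 1 and 3 the log2 fold change was 0.26 (adjusted p = 0.0762) for Cry1 and 0.28 (adjusted p = 0.281) for Per2. Ciart, a repressor of ARNTL and CLOCK, fell, with 177, 97.7, 146, 95.2 and 122 at ZT17 and 131 to 211 (median 176) at ZT5 (-0.42 ± 0.14 SE, adjusted p = 0.0363). It lost the call in 11 of 26 alternatives. The correction gave -0.48 and leaving out ZT17 replicates 1 and 3 gave -0.70.

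The E-box is the element through which ARNTL and CLOCK act. CACGTG, which reads the same on both strands, occurred in the RefSeq promoters (GRCm38.p6, 250 bases before to 50 after the start) of 4 of the 6 repressors with an entry, namely Per1, Cry1, Ciart and Bhlhe41, of 11.2% of the 11936 tested genes with one and of 8.09% of all 27025 genes. The promoters of Ciart (chr3:95882179-95882478 on the minus strand) and Cry1 (chr10:85185005-85185304 on the minus strand) are shown because they moved in opposite directions, with the E-box in capitals.
Ciart: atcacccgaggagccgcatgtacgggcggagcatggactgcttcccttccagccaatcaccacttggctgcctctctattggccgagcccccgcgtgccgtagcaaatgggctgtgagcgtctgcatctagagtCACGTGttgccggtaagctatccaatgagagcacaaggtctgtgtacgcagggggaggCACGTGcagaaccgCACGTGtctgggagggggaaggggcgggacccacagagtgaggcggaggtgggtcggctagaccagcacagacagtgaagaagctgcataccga
Cry1: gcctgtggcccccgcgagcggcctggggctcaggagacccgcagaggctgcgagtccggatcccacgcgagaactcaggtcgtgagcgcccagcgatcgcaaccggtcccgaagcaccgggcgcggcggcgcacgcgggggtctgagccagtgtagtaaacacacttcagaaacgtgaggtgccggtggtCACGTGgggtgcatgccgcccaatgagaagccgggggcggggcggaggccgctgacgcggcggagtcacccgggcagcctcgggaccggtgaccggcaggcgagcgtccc
Ciart holds 3 E-boxes in this window and Cry1 1.

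Arntl was at 1869, 1747, 1786, 1870.2 and 1830.0 at ZT17 and 1578 to 1906 (median 1789) at ZT5, a log2 fold change of 0.04 ± 0.07 (SE, adjusted p = 0.693). Clock (-0.16 ± 0.08), Per1 (0.21 ± 0.14), Per3 (0.03 ± 0.08), Cry2 (0.06 ± 0.07), Nr1d1 (0.25 ± 0.14), Nr1d2 (-0.14 ± 0.10), Npas2 (0.23 ± 0.16), Arntl2 (-0.09 ± 0.16), Bhlhe40 (-0.10 ± 0.10) and Bhlhe41 (0.04 ± 0.06) did not pass the test (log2 fold change ± SE). Rorb, the ROR receptor of rods and inner neurons, had 12359, 15745, 12219, 15169 and 15549 at ZT17 and 8733 to 10754 (median 10231) at ZT5, with a log2 fold change of 0.50 ± 0.09 (SE, adjusted p = 0.000112) and no overlap. Rora stood at -0.01 with an adjusted p of 0.952, and at 0.16 with 0.018 after the correction.

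Of the 4 output factors of the bZIP family 1 was called (25% called, against 15.1% of all genes, and 0 higher and 0 lower in the 9-library comparison). It was Nfil3, a repressor, which was higher at night (0.44 ± 0.11 SE, adjusted p = 0.00531, 0.37 with adjusted p = 0.0722 in the 9-library comparison). Hlf (0.10 ± 0.06), Tef (0.07 ± 0.05) and Dbp (-0.03 ± 0.11) did not pass, and the corrected value of Dbp was -0.20 (adjusted p = 0.0271). Among 12 kinases and ubiquitin ligase components of the clock (16.7% called, against 15.1% of all genes, and 0 higher and 0 lower in the 9-library comparison), the deubiquitinase gene Usp2 rose (0.37 ± 0.12 SE, adjusted p = 0.0298, 0.17 with adjusted p = 0.564 in the 9-library comparison) and the F-box gene Fbxl21 fell (-0.49 ± 0.14 SE, adjusted p = 0.0156, corrected -0.37 with adjusted p = 0.0607, -0.46 with adjusted p = 0.115 in the 9-library comparison). Their calls were lost in 6 and 7 of 26 alternatives. Among the others, Csnk1d, Csnk1e, Csnk2a1, Csnk2a2, Gsk3b, Fbxw11, Btrc, Prkaa1 and Prkaa2 lay between -0.10 and 0.19. Calls in this list numbered 2 in all and 0 without ZT17 replicate 3 or ZT5 replicate 1 and 1 without ZT17 replicate 1 or ZT5 replicate 2.

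Of 6 genes that the study lists as controlled by the retinal clock, 4 rose and 1 fell (83.3% called, against 15.1% of all genes). Usp2 was among the risen, but it was not called without ZT17 replicates 1 and 3, where 3 of the genes rose and 1 fell. Drd4, the D4 dopamine receptor of photoreceptors (chromosome 7, 141292006 to 141296464), had 4719, 3708, 5977, 5485 and 5229 at ZT17 and 1834 to 2326 (median 1973) at ZT5, with a log2 fold change of 1.32 ± 0.13 (SE, adjusted p = 5.52e-11). The call held in all 26 alternatives. Plekhb1, a membrane protein of photoreceptors, had 15496, 13888, 16676, 15015 and 14476 at ZT17 and 7692 to 9408 (median 8651) at ZT5 (0.80 ± 0.08 SE, adjusted p = 4.11e-10). Cys1, which encodes the ciliary protein cystin, changed by 0.84 ± 0.11 (SE, adjusted p = 4.7e-07). Nr2e3, the receptor that represses cone genes in rods, fell from 7186 to 8581 (median 7707) at ZT5 to 5158 to 5907 at ZT17 (-0.48 ± 0.09 SE, adjusted p = 9.26e-05). Adcy1, the adenylyl cyclase, stood at -0.11 ± 0.06 (SE, adjusted p = 0.193), and at -0.22 (adjusted p = 0.00745) after the correction.

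Over the 6 control time points, Drd4 had its lowest mean at ZT5, 2008 ± 174 (SD, n = 6), and its highest at ZT17, 5023 ± 864 (SD, n = 5), with 4747 ± 923 (SD, n = 4) at ZT21, within the spread of ZT17. Per2 was 767 ± 144 at ZT17 and 766 ± 76.0 at ZT9 (SD, n = 5 each), so that ZT5 and ZT21, at 566 ± 61.4 and 590.1 ± 88.3, were its low points. Ciart had its highest mean at ZT9, 257 ± 34.9 (SD, n = 5), and lay at 170.3 ± 34.0 at ZT5 and 128 ± 34.7 at ZT17. The pair ZT17 and ZT5 thus took Drd4 near both ends of its range and Ciart at neither end.

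**Figure D3:**
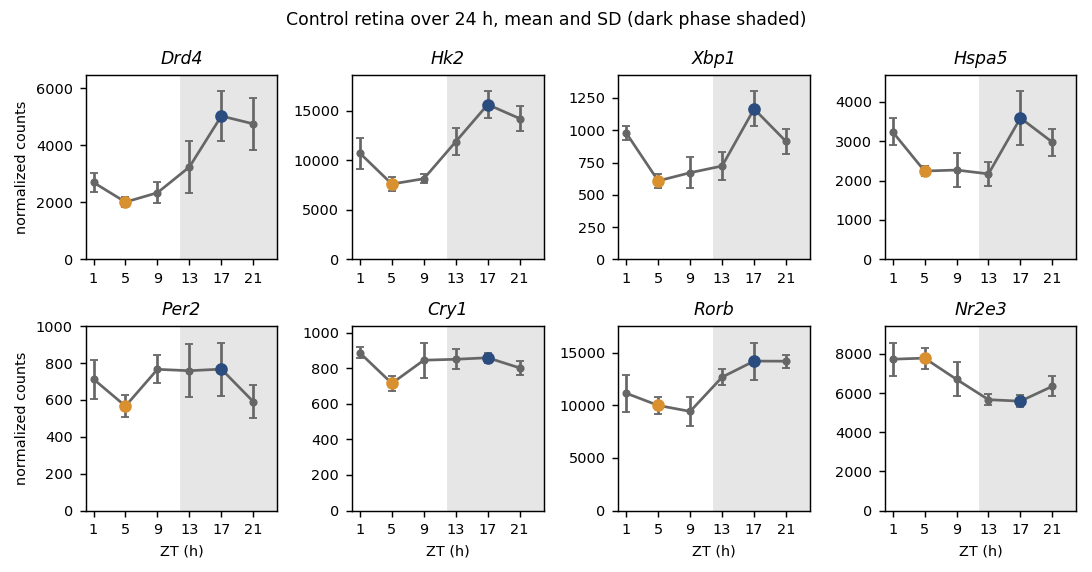
Mean normalized counts with SD (vertical axes, from 0) of 8 genes in control retinas at 6 time points (horizontal axis, ZT in h; the dark phase is shaded; 4 to 6 libraries a point). ZT5 and ZT17 are the larger coloured points; Drd4, Hk2 and Rorb are low at ZT5 and high at ZT17, and Nr2e3 is the reverse.

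In the dopamine, cyclic AMP and melatonin pathway, 5 of 27 tested genes rose and none fell (18.5% called, against 15.1% of all genes), and 6 rose and 2 fell after the correction. Next to Drd4, the D2 receptor gene Drd2 had 794, 569.9, 831, 669.9 and 675 at ZT17 and 376 to 468 (median 436) at ZT5 (0.72 ± 0.10 SE, adjusted p = 6.04e-07), without overlap. The adenylyl cyclase gene Adcy8 changed by 0.43 ± 0.08 (SE, adjusted p = 0.000152) and Prkaca, the catalytic subunit of protein kinase A, by 0.32 ± 0.09 (SE, adjusted p = 0.00827, 0.23 with adjusted p = 0.192 in the 9-library comparison). The phosphodiesterase gene Pde4a (0.27 ± 0.10 SE, adjusted p = 0.0481, corrected 0.13 with adjusted p = 0.0899, 0.16 with adjusted p = 0.493 in the 9-library comparison) lost its call in 14 of 26 alternatives. With 1 library left out, the 5 calls became 3 without ZT17 replicate 3.

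Immediate early genes moved in both directions, with 5 of 20 higher and 3 lower (40% called, against 15.1%). Nr4a1, an orphan nuclear receptor, had 937, 679, 1849, 1331 and 1303 at ZT17 and 189 to 691 (median 609) at ZT5 (1.24 ± 0.25 SE, adjusted p = 0.00043). Ier2 (0.79 ± 0.18 SE, adjusted p = 0.00181, 0.64 with adjusted p = 0.0526 in the 9-library comparison) and Jun (0.42 ± 0.12 SE, adjusted p = 0.0153, 0.22 with adjusted p = 0.429 in the 9-library comparison) also rose. Npas4, which responds to calcium influx in neurons, fell, with 36.4, 32.0, 60.2, 45.3 and 35.1 at ZT17 and 46.0 to 94.9 (median 76.0) at ZT5 (-0.80 ± 0.23 SE, adjusted p = 0.0123), and so did Btg2 (-0.35 ± 0.08 SE, adjusted p = 0.00144). Without ZT17 replicates 1 and 3, 1 gene of the list was higher and 2 were lower. These 8 calls changed to 4 without ZT17 replicate 3 and 5 without ZT17 replicate 1 or ZT5 replicate 1 or 2.

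Of 18 glucocorticoid-responsive genes 5 rose and none fell (27.8% called, against 15.1% of all genes). Klf9, a direct target of the receptor, had 2049.5, 1989.9, 2261, 1935 and 2035 at ZT17 and 1447 to 1695 (median 1539) at ZT5 (0.41 ± 0.08 SE, adjusted p = 0.000228). Glul, the glutamine synthetase of Müller glia, changed by 0.28 ± 0.07 (SE, adjusted p = 0.00321), Zbtb16 by 0.80 ± 0.19 (SE, adjusted p = 0.00301, 0.53 with adjusted p = 0.162 in the 9-library comparison) and Ddit4, an inhibitor of mTORC1, by 0.37 ± 0.09 (SE, adjusted p = 0.00484). Errfi1 (0.20 ± 0.07 SE, adjusted p = 0.0438, 0.19 with adjusted p = 0.198 in the 9-library comparison) lost its call in 14 of 26 alternatives.

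Transcription factors of photoreceptors had 8 of 15 higher and 1 lower (60% called, against 15.1%). Besides Rorb and Nr2e3, the rod factor Esrrb had 12076, 9531, 13314, 9943 and 10544 at ZT17 and 6041 to 7329.9 (median 6966) at ZT5 (0.68 ± 0.09 SE, adjusted p = 4.32e-07), Samd7 changed by 0.42 ± 0.08 (SE, adjusted p = 0.000166) and Mef2d by 0.57 ± 0.12 (SE, adjusted p = 0.000916, 0.42 with adjusted p = 0.0673 in the 9-library comparison). In the 9-library comparison 4 rose and 1 fell. In the phototransduction cascade of rods, Pde6g (0.32 ± 0.10 SE, adjusted p = 0.0264, 0.17 with adjusted p = 0.483 in the 9-library comparison) and the exchanger gene Slc24a1 (0.22 ± 0.07 SE, adjusted p = 0.0275, 0.15 with adjusted p = 0.361 in the 9-library comparison) were the 2 called of 10 (20% called, against 15.1% of all genes, and 0 higher and 0 lower in the 9-library comparison). When single libraries were removed the 2 calls became 0 without ZT17 replicate 1 or 3 or ZT5 replicate 1 or 2 and 1 without ZT5 replicate 3. In cones, Cnga3 rose (0.42 ± 0.10 SE, adjusted p = 0.00262), Gngt2 rose (0.30 ± 0.10 SE, adjusted p = 0.0423, 0.13 with adjusted p = 0.647 in the 9-library comparison) and Pde6h fell (-0.20 ± 0.06 SE, adjusted p = 0.0137, -0.17 with adjusted p = 0.158 in the 9-library comparison). These were the 3 called of 10 (30% called, against 15.1% of all genes), with 1 higher and 0 lower in the 9-library comparison. From 3, the count of calls went to 1 without ZT17 replicate 3 and 5 without ZT17 replicate 2.

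Genes that shut off the photoresponse moved in both directions, 3 up and 3 down of 15 (40% called, against 15.1%). Recoverin (Rcvrn), the calcium sensor that holds back rhodopsin kinase, had 15774, 12574, 16775, 13369 and 13527 at ZT17 and 8343 to 11361 (median 9951) at ZT5 (0.53 ± 0.10 SE, adjusted p = 0.000126), with no overlap. Phosducin (Pdc), which binds transducin subunits, changed by 0.37 ± 0.08 (SE, adjusted p = 0.00123), or 0.76 after the correction, and Gnb5 by 0.23 ± 0.05 (SE, adjusted p = 0.00074). Cone arrestin (Arr3) fell, with 2579, 2244, 1917, 1931 and 2156 at ZT17 and 2739 to 3199.8 (median 2957) at ZT5 (-0.45 ± 0.09 SE, adjusted p = 0.000602), and so did Guca1b, an activator of guanylyl cyclase (-0.30 ± 0.07 SE, adjusted p = 0.00372). Diabetic retinas had log2 fold changes of 0.36 for Rcvrn, -0.43 for Arr3 and -0.28 for Guca1b.

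At the photoreceptor synapse and membrane 6 of 31 genes rose and 2 fell (25.8% called, against 15.1%). Ctbp2, whose transcripts include the ribbon protein, changed by 0.36 ± 0.06 (SE, adjusted p = 2.65e-05), Rims1 by 0.35 ± 0.10 (SE, adjusted p = 0.0151, 0.23 with adjusted p = 0.29 in the 9-library comparison) and Elfn1, the trans-synaptic partner of mGluR6, by 0.52 ± 0.16 (SE, adjusted p = 0.0189, 0.30 with adjusted p = 0.403 in the 9-library comparison), while Sv2b fell (-0.23 ± 0.07 SE, adjusted p = 0.0265, -0.13 with adjusted p = 0.457 in the 9-library comparison). In the 9-library comparison 2 rose and none fell. Leaving out 1 library turned the 8 calls of this list into 2 without ZT17 replicate 3, 3 without ZT17 replicate 1 or ZT5 replicate 1, 4 without ZT5 replicate 2 or 3 and 5 without ZT5 replicate 6. In the outer segment list 2 of 29 rose and 3 fell (17.2% called, against 15.1% of all genes), with 0 higher and 2 lower in the 9-library comparison. The fallen were Ttc8 (-0.30 ± 0.06), Fscn2 (-0.39 ± 0.09) and Ift88 (-0.30 ± 0.09). Ift88 was not called after the correction, at -0.10, nor in the 9-library comparison. Calls in this list numbered 5 in all and 2 without ZT17 replicate 3 and 3 without ZT17 replicate 1 or ZT5 replicate 1.

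Of the visual cycle genes 8 of 15 were higher and none lower (53.3% called, against 15.1%), with 2 higher and 0 lower in the 9-library comparison. Rdh10 (0.43 ± 0.08 SE, adjusted p = 0.000255) and Rdh8 (0.34 ± 0.07 SE, adjusted p = 0.00115, corrected 0.21 with adjusted p = 0.00154, 0.26 with adjusted p = 0.0568 in the 9-library comparison), retinol dehydrogenases, rose without overlap. Rpe65, the isomerase of the pigment epithelium, had 388, 496, 365, 302 and 425 at ZT17 and 65.6 to 301 (median 137) at ZT5 (1.30 ± 0.34 SE, adjusted p = 0.00606). The marker list of pigment epithelium and melanocytes moved with it: its summed level was 2199 to 4555 at ZT17 and 1019 to 2729.6 at ZT5, and 5 of 11 tested markers were called (45.5% called, against 15.1%). Ttr (543 to 1253 normalized counts at ZT17 and 169.9 to 725 (median 330.1) at ZT5, adjusted p = 0.00303, and a log2 fold change of 0.87 with adjusted p = 0.138 in the 9-library comparison), Rgr (1.01 ± 0.28 SE, adjusted p = 0.00983, 0.81 with adjusted p = 0.147 in the 9-library comparison), Lrat (0.87 ± 0.28 SE, adjusted p = 0.0304, 0.87 with adjusted p = 0.127 in the 9-library comparison) and Rdh5 (0.78 ± 0.23 SE, adjusted p = 0.0177, 0.33 with adjusted p = 0.565 in the 9-library comparison) were among them, and their groups overlapped. In the 9-library comparison 1 of the markers stayed past the threshold. Visual cycle genes called numbered 8 in all and 5 without ZT17 replicate 1 or 3. The part of pigment epithelium carried along with the retina in these results was not tested, and in bulk tissue fewer cells of a type and less RNA per cell cannot be told apart.

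Glycolysis had the largest share of calls among the metabolic lists. Of 26 tested genes 17 were higher at ZT17 and 1 lower (69.2% called, against 15.1%), with a median log2 fold change of 0.43 against -0.03 over all genes, and after the correction 18 and 1. In the 9-library comparison 13 were higher and 1 lower, where 2.44% of all genes were higher. In diabetic retinas 13 were higher and none lower, with a median of 0.27, where 3.84% of all genes were higher.

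The first step had one of the smallest p-values. Hk2, the hexokinase of photoreceptors (chromosome 6, 82725025 to 82774454), had 14877, 16232, 16481, 13683 and 16907 normalized counts at ZT17 and 6838 to 8566 (median 7619) at ZT5, a log2 fold change of 1.03 ± 0.09 (SE, adjusted p = 5.34e-12), and all 5 night libraries lay above all 6 day libraries. Pfkl, the liver-type phosphofructokinase, changed by 0.64 ± 0.08 (SE, adjusted p = 6.56e-08). The chain went on through Aldoa (0.63), Tpi1 (0.59), Gapdh (0.48), Pgk1 (0.55), Pgam1 (0.47), Eno1 (0.38) and Pkm (0.42), all called higher. Ldha, the lactate dehydrogenase subunit that favours lactate, had 11864, 13539.6, 13579.5, 11572 and 13390.0 at ZT17 and 8196 to 9527 (median 9212) at ZT5 (0.49 ± 0.07 SE, adjusted p = 1.08e-06). Of the transporters, the glucose transporter gene Slc2a1 changed by 0.64 ± 0.09 (SE, adjusted p = 2.09e-06). Slc16a3, the lactate exporter MCT4 (chromosome 11, 120948480 to 120960868), had 1108, 1215, 1407, 1123 and 1235 at ZT17 and 525 to 579.5 (median 549) at ZT5, with 1.14 ± 0.13 (SE, adjusted p = 5.12e-09). Slc16a8, the lactate transporter of the pigment epithelium, stood at 1.08 and moved with the pigment epithelium markers above. Hk1 (0.26), Ldhb (0.17), Pfkm (0.11) and Slc16a1 (-0.12) did not pass, and Pfkfb4 was the gene that fell (-0.27).

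Of 33 hypoxia factors and targets of HIF1, 14 rose and none fell (42.4% called, against 15.1%), and 13 rose and 1 fell after the correction. Slc2a1 and Ldha are counted in the glycolysis list too, and Pdk1 and Ddit4 in other lists. P4ha1, a collagen prolyl hydroxylase, had 1521, 1613, 1590.0, 1626 and 1729 at ZT17 and 941 to 1078 (median 1057) at ZT5 (0.63 ± 0.08 SE, adjusted p = 2.18e-07). Egln1, the oxygen sensor PHD2, changed by 0.63 ± 0.09 (SE, adjusted p = 7.33e-07) and Mxi1 by 0.55 ± 0.09 (SE, adjusted p = 2.81e-05). Hif1a itself stood at -0.11 and Vegfa at 0.20, and neither passed. Of 34 genes of pyruvate dehydrogenase and the citric acid cycle, 3 rose (8.82% called, against 15.1% of all genes, and 1 higher and 0 lower in the 9-library comparison), namely the inhibitory kinase Pdk1 (0.32 ± 0.09 SE, adjusted p = 0.00798), Cs (0.22 ± 0.06 SE, adjusted p = 0.0114, 0.14 with adjusted p = 0.304 in the 9-library comparison) and Mdh2 (0.23 ± 0.08 SE, adjusted p = 0.0382, 0.10 with adjusted p = 0.612 in the 9-library comparison). These 3 calls changed to 1 without ZT17 replicate 3, 5 without ZT17 replicate 2 and 6 without ZT17 replicate 5.

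The core of the HIF1 element, ACGTG on either strand, was found in the promoters of 15 of 25 glycolysis genes and 17 of 27 hypoxia genes with an entry, in 28% of the 11936 tested genes with one and in 21.8% of all genes; it lies within CACGTG, so an E-box counts as a match. Of the glycolysis genes that rose, 10 of 17 held it. Ldha (chr7:46845554-46845853 on the plus strand), Pgk1 (chrX:106186850-106187149 on the plus strand) and Slc16a3 (chr11:120948817-120949116 on the plus strand) are shown as genes of the pathway that were higher, with each match in capitals.
Ldha: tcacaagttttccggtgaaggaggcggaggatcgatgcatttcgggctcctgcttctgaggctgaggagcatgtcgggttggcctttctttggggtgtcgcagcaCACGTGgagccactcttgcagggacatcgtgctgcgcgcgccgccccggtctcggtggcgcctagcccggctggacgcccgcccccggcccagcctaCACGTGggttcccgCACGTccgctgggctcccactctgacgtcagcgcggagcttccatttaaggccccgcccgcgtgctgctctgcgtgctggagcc
Pgk1: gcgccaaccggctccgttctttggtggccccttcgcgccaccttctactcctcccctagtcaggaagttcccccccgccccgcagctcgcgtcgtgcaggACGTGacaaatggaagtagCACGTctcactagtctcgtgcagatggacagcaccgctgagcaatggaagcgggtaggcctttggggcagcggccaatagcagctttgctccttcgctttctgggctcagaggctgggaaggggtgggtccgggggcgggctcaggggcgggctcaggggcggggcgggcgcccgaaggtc
Slc16a3: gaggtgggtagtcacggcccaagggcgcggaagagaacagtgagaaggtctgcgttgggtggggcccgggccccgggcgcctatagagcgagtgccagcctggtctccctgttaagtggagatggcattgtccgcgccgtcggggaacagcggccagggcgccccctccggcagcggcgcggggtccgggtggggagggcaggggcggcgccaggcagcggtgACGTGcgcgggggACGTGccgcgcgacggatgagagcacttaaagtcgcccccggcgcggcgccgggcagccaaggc
A match of these letters is a description of the window, and binding was not measured.

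Of 27 tested genes of the chaperones of the endoplasmic reticulum (ER) and the unfolded protein response, 14 were higher at ZT17 and none lower (51.9% called, against 15.1%), and 12 after the correction and 10 without ZT17 replicates 1 and 3. Xbp1, the transcription factor of the response that is activated by splicing (chromosome 11, 5520659 to 5525893), had 939, 1158, 1216, 1215 and 1298 at ZT17 and 554 to 698 (median 598) at ZT5 (0.93 ± 0.09 SE, adjusted p = 3.48e-11). Hspa5, the main ER chaperone BiP (chromosome 2, 34771970 to 34777547), had 2724, 4524, 3201, 3685 and 3803 at ZT17 and 2076 to 2471 (median 2220.1) at ZT5 (0.67 ± 0.11 SE, adjusted p = 8.34e-06). Manf, a secreted ER stress factor, had 605, 615, 632, 584 and 584 and 320.1 to 398 (median 345) (0.78 ± 0.10 SE, adjusted p = 7.01e-08), Creld2 had 308, 286, 338, 307 and 239.5 and 167 to 224 (median 199) (0.60 ± 0.09 SE, adjusted p = 3.3e-06), and Hyou1 changed by 0.40 ± 0.06 (SE, adjusted p = 1.84e-05). Calr (0.56), Pdia6 (0.38), Pdia4 (0.34), Pdia3 (0.27) and P4hb (0.23), which fold glycoproteins and form disulfide bonds, were called too. The sensors Ern1 (-0.08) and Eif2ak3 (0.07) and the chaperone genes Hsp90b1 (0.04) and Canx (-0.04) did not pass.

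The ER stress element is CCAAT, 9 bases of any kind and CCACG, searched on both strands. It was present in the promoters of 9 of the 22 genes of this list with an entry. Among the 11936 tested genes with one, these included, 21 held it, or 0.176%, and 0.137% of all 27025 genes did. Of the genes of the list that rose, 6 of 11 held it. It is shown in capitals in Hspa5 (chr2:34771840-34772139 on the plus strand), Pdia6 (chr12:17266339-17266638 on the plus strand), Calr (chr8:84846882-84847181 on the minus strand) and Creld2 (chr15:88819396-88819695 on the plus strand), which were all higher at ZT17.
Hspa5: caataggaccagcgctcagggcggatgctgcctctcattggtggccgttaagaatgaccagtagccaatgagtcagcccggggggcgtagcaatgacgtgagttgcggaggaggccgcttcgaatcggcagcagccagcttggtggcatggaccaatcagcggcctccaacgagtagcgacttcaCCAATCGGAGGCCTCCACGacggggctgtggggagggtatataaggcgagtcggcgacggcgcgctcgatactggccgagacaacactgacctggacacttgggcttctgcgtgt
Pdia6: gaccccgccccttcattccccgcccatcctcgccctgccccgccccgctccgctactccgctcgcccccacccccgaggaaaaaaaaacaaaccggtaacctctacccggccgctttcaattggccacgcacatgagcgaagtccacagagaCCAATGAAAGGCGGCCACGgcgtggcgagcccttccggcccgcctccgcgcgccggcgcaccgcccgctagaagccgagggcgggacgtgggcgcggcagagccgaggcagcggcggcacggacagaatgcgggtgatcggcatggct
Calr: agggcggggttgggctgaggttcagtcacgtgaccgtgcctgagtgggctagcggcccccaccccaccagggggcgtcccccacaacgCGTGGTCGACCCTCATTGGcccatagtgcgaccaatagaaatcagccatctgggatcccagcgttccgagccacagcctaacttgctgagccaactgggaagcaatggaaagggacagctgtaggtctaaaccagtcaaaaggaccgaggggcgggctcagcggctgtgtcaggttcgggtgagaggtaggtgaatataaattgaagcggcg
Creld2: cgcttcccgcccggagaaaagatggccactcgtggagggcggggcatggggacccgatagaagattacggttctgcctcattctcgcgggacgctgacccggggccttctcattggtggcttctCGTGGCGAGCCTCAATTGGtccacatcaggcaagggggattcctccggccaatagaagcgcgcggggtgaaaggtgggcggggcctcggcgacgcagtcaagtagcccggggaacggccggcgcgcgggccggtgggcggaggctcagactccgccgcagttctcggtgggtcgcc
Hsp90b1, Canx and Syvn1, which did not pass, also held the element.

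In diabetic retinas the same list had 1 gene called higher and none lower, where 3.84% of all genes were called higher there and 7.62% in control retinas, with a median log2 fold change of 0.06 against 0.22 in control retinas. The difference between the genotypes had an unadjusted p under 0.05 for 11 of the 27 genes, where 3.84% of all genes had one. After adjustment over all genes edgeR called 0 genes and DESeq2 called 1, Creld2 (adjusted p = 0.0493). Creld2 had the smallest p of all genes tested, with a difference of -0.66 ± 0.13 (SE, unadjusted p = 8.05e-06, adjusted p = 0.154). Sdf2l1, an ER chaperone cofactor, had 67.1, 112, 103, 107 and 109 at ZT17 and 29.1 to 54.5 (median 46.7) at ZT5 in control retinas, 1.12 ± 0.18 (SE, adjusted p = 2.43e-05), and -0.05 ± 0.21 (SE, adjusted p = 0.922) in diabetic ones (adjusted p of the difference = 0.459). The third was Camk1d, a calmodulin kinase gene, at 0.12 ± 0.06 in control and 0.49 ± 0.07 in diabetic retinas (adjusted p of the difference = 0.459). The edgeR call depended on the libraries and the correction, as without ZT17 replicate 5 the difference passed for Creld2 (adjusted p = 0.0212), and in the 9-library comparison with the correction for Sdf2l1 (adjusted p = 0.0169) and Xbp1 (adjusted p = 0.0169).

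**Figure D4:**
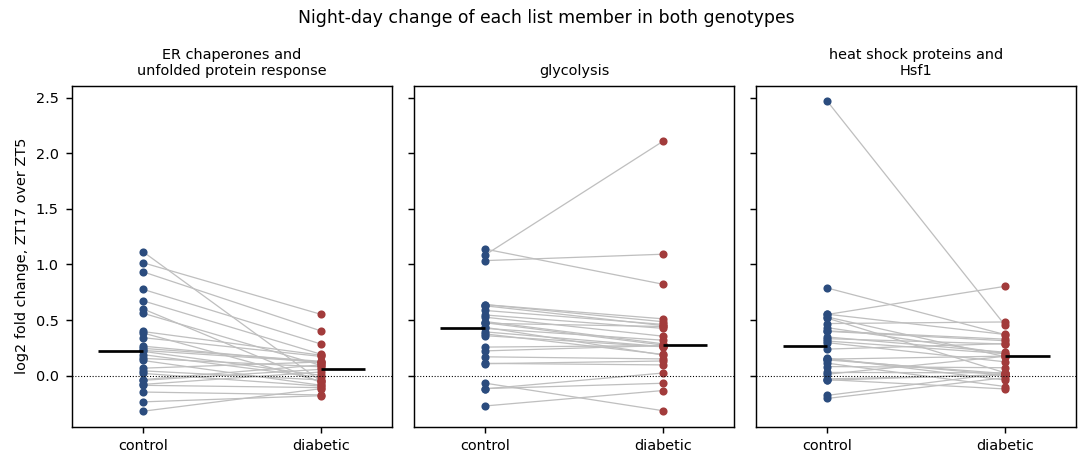
Log2 fold change of ZT17 over ZT5 (vertical axis) of each tested member of 3 lists in control and diabetic retinas, with lines joining a gene and black bars at the list medians. The medians are 0.22 and 0.06 for the ER list, 0.43 and 0.27 for glycolysis and 0.27 and 0.17 for heat shock proteins, and the single high heat shock point is Cryab.

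Of the heat shock proteins and their factor Hsf1, 12 of 28 rose and none fell (42.9% called, against 15.1%). Hspa8, the constitutive Hsp70, had 9340.3, 8726, 10343, 8504 and 8988 at ZT17 and 4316 to 6173 (median 5278) at ZT5 (0.79 ± 0.11 SE, adjusted p = 9.91e-07). Hsp90aa1 changed by 0.47 ± 0.07 (SE, adjusted p = 1.18e-05), Hsph1 by 0.52 ± 0.10 (SE, adjusted p = 0.000158), the co-chaperone gene Stip1 by 0.55 ± 0.10 (SE, adjusted p = 0.000166) and Dnajb1 by 0.53 ± 0.11 (SE, adjusted p = 0.000541). The mitochondrial chaperones Hspd1 (0.03) and Hspe1 (-0.04) did not pass. Cryab, at 2.47, is also a lens gene, and ZT17 replicate 5 held the lens markers, whose part in this value was not tested. The count of risen genes was 7 without ZT17 replicates 1 and 3, 13 without them and with the correction, and 13 with the correction alone. In the list of ATF4 targets 6 of 26 rose, such as Ddit3 (0.36 ± 0.09 SE, adjusted p = 0.00553, 0.25 with adjusted p = 0.192 in the 9-library comparison), and 2 fell, of which Slc7a1, an arginine transporter, was the clearer (-0.52 ± 0.09 SE, adjusted p = 7.04e-05). Of this list 30.8% was called, against 15.1% of all genes, with 1 higher and 1 lower in the 9-library comparison. When single libraries were removed the 8 calls became 4 without ZT17 replicate 1 or 3 or ZT5 replicate 1 and 5 without ZT5 replicate 2 or 5. Of 27 antioxidant genes 7 rose (25.9% called, against 15.1%, and 2 higher and 0 lower in the 9-library comparison), led by the transcription factor Nfe2l2 (0.41 ± 0.08 SE, adjusted p = 0.000207) and Prdx6 (0.39 ± 0.08 SE, adjusted p = 0.000316). From 7, the count of calls went to 3 without ZT17 replicate 3.

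Of 35 factors that build ribosomes 13 were lower at night and 1 higher (40% called, against 15.1%), and 9 fell without ZT17 replicates 1 and 3. Wdr43, of the small subunit processome, had 441, 452, 435, 450.0 and 448 at ZT17 and 549.5 to 609.8 (median 575) at ZT5 (-0.38 ± 0.06 SE, adjusted p = 2.03e-06). Nop58, a snoRNP core protein, changed by -0.51 ± 0.09 (SE, adjusted p = 4.4e-05, corrected -0.34 with adjusted p = 3e-06), Tsr1 by -0.58 ± 0.10 (SE, adjusted p = 4.8e-05), Utp20 by -0.39 ± 0.07 (SE, adjusted p = 0.00024) and Polr1b, a subunit of RNA polymerase I, by -0.34 ± 0.08 (SE, adjusted p = 0.00173). The gene that rose was Bop1 (0.27). Leaving out 1 library turned the 14 calls of this list into 7 without ZT17 replicate 3 and 9 without ZT5 replicate 1.

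Ribosomal proteins themselves went the other way in count, 26 of 80 higher and none lower (32.5% called, against 15.1%), with a median log2 fold change of 0.23. After the correction 22 were higher and none lower. Without ZT17 replicates 1 and 3 none of them was called, where 4.78% of all genes were. Calls in this list numbered 26 in all and 1 without ZT17 replicate 3, 4 without ZT17 replicate 1, 5 without ZT5 replicate 1, 9 without ZT5 replicate 2, 11 without ZT5 replicate 3 and 14 without ZT5 replicate 6. Of 72 subunits of the respiratory chain 15 were higher and 2 lower (23.6% called, against 15.1% of all genes), and 18 and 2 after the correction. In the 9-library comparison it was 1 and 0, where 4.78% of all genes were called. With 1 library left out, the 17 calls became 2 without ZT17 replicate 3, 4 without ZT17 replicate 1 or ZT5 replicate 1, 6 without ZT5 replicate 2 and 10 without ZT5 replicate 3. Rpl23a (0.44 ± 0.13 SE, adjusted p = 0.0144, 0.22 with adjusted p = 0.464 in the 9-library comparison) and Ndufa8 (0.37 ± 0.09 SE, adjusted p = 0.00344, corrected 0.24 with adjusted p = 0.00485, 0.25 with adjusted p = 0.156 in the 9-library comparison) had the smallest p of their lists. Of 9 tested transcripts of the mitochondrial genome none was called, and mt-Co1 had 44935, 78357, 34343, 89184 and 57914 at ZT17 and 68916 to 99548 (median 74217) at ZT5.

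Of 53 genes of DNA replication and repair 17 were lower at night and none higher (32.1% called, against 15.1%), with a median log2 fold change of -0.21. After the correction 21 were lower, where 7.77% of all genes were. Without ZT17 replicates 1 and 3 it was 10, where 2.33% of all genes were lower. In diabetic retinas it was 12, where 3.61% of all genes were lower. Brca2, which acts in homologous recombination, had 172, 287, 166, 294 and 248 at ZT17 and 333 to 515 (median 411) at ZT5 (-0.82 ± 0.15 SE, adjusted p = 0.000142). Xrcc5, the Ku80 subunit of end joining, changed by -0.36 ± 0.07 (SE, adjusted p = 0.000143), Rpa2 by -0.41 ± 0.10 (SE, adjusted p = 0.00271) and the helicase subunit gene Mcm3, present at low level, by -0.90 ± 0.18 (SE, adjusted p = 0.000507). Lig4 changed by -0.48 ± 0.11 (SE, adjusted p = 0.00135, -0.26 with adjusted p = 0.165 in the 9-library comparison) and in diabetic retinas by -0.01 ± 0.11 (SE, adjusted p = 0.961). The kinase gene Atr (-0.56) and Pole (-0.59) were called as well, while Pcna (0.13) and Parp1 (-0.11) did not pass.

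In cholesterol and fatty acid synthesis 8 of 40 fell and 2 rose (25% called, against 15.1%, and 1 higher and 4 lower in the 9-library comparison). Lss, the lanosterol synthase, had 914, 871, 921, 748 and 877 at ZT17 and 1006 to 1114 (median 1052) at ZT5 (-0.30 ± 0.06 SE, adjusted p = 0.000166). Cyp51 (-0.38 ± 0.08 SE, adjusted p = 0.000823, -0.29 with adjusted p = 0.0551 in the 9-library comparison) and Hsd17b7 (-0.47 ± 0.11 SE, adjusted p = 0.00278) fell too, and Acly, which makes cytosolic acetyl-CoA, rose (0.25 ± 0.06 SE, adjusted p = 0.0012). These 10 calls changed to 6 without ZT17 replicate 3. Of 27 genes of fatty acid oxidation and ketones 3 rose and 2 fell (18.5% called, against 15.1% of all genes, and 1 higher and 2 lower in the 9-library comparison), with Hadh up (0.47 ± 0.08 SE, adjusted p = 3.46e-05) and Acadm (-0.40 ± 0.07 SE, adjusted p = 5.21e-05) and Cpt1a (-0.30 ± 0.06 SE, adjusted p = 0.000607) down. When single libraries were removed the 5 calls became 3 without ZT17 replicate 1 or 3 or ZT5 replicate 1. Among 29 genes of insulin, FOXO and mTOR signalling 4 rose and 2 fell (20.7% called, against 15.1% of all genes, and 2 higher and 2 lower in the 9-library comparison), and of these the IGF1 receptor gene Igf1r rose (0.29 ± 0.05 SE, adjusted p = 0.000118) and Arrdc4 fell (-0.51 ± 0.11 SE, adjusted p = 0.00157). From 6, the count of calls went to 3 without ZT17 replicate 3. Splicing factors had 3 higher and 7 lower of 53 (18.9% called, against 15.1% of all genes), or 6 and 6 after the correction and 1 higher and 2 lower in the 9-library comparison, with Hnrnpdl the one of smallest p (-0.45 ± 0.06 SE, adjusted p = 5.23e-07). Leaving out 1 library turned the 10 calls of this list into 2 without ZT17 replicate 1 or 3, 3 without ZT5 replicate 1 or 2, 4 without ZT5 replicate 3 and 5 without ZT5 replicate 4 or 6.

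**Figure D5:**
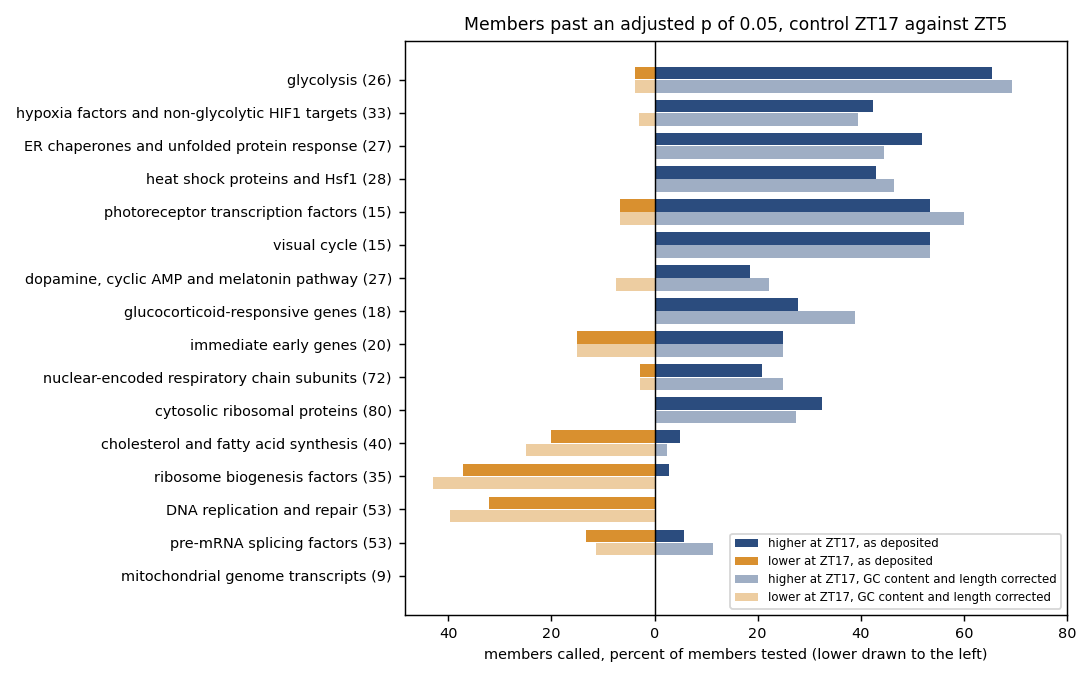
Members past an adjusted p of 0.05 as a percent of those tested (horizontal axis; higher at ZT17 to the right, lower to the left) in 16 lists, with the number tested in brackets, for counts as deposited (dark bars) and after correction for GC content and length (pale bars). Glycolysis reaches furthest right, and ribosome biogenesis and DNA replication and repair furthest left.

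Marker lists were used to check the tissue. Rod markers summed to 661852 to 814149 normalized counts at ZT17 and 647684 to 720082 at ZT5, and the markers of cones, bipolar, amacrine and ganglion cells were present in all 11 libraries. Of 10 rod markers 0 were higher and 2 lower (20% called, against 15.1% of all genes), and of 9 cone markers 3 were higher and 2 lower (55.6% called, against 15.1%, and 2 higher and 1 lower in the 9-library comparison). Of 13 ON bipolar markers 8 were higher at night and none lower (61.5% called, against 15.1%, and 4 higher and 0 lower in the 9-library comparison). Grm6, the mGluR6 receptor of these cells, had 2708, 2615, 2734, 2872 and 2434 at ZT17 and 1841 to 2144 (median 1984) at ZT5 (0.42 ± 0.08 SE, adjusted p = 0.00023). Müller glia and astrocyte markers had 5 of 13 higher (38.5% called, against 15.1%, and 1 higher and 0 lower in the 9-library comparison), with Car14 at 0.43 ± 0.09 (SE, adjusted p = 0.000774, 0.20 with adjusted p = 0.215 in the 9-library comparison). Of the 6 horizontal, 12 ganglion and 10 microglial markers tested none was called. Lens markers were called for 5 of 5 tested, and Cryaa had 15239.5 in ZT17 replicate 5 and at most 164 in the other 10 libraries. Without ZT17 replicate 5 none of the 5 was called, with adjusted p from 0.724 to 0.938.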

How the data were processed

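Raw read counts per gene for 58 libraries were used as deposited. According to the study's methods and the submitters' processing notes, the authors checked paired-end reads with FastQC, aligned them to GRCm38.p5 with STAR 2.7.4a, counted them per Gencode gene with HTSeq 0.11.1 and normalized with DESeq2 1.26.0. Whether counting used strand is not given in the sources used here. Genes with a median above 4 normalized counts over the 58 libraries were kept, 19120 of 52459 symbols. One edgeR (4.0.16, R 4.3.3) quasi-likelihood model with TMM factors was fitted to the 12 groups of genotype and time, and p-values were adjusted over all genes tested by the Benjamini-Hochberg method. The scripts were tested on simulated data. Printed levels are counts divided by DESeq2 (1.42.0) size factors. The correction removed trends of each library with exonic GC content and length (Gencode M21, which also gave locations on GRCm38). Promoters came from RefSeq (GRCm38.p6).

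Named genes were the 8 called genes of largest change in each direction with a mean of at least 100 normalized counts and no overlap, the 6 of smallest p in each direction (both without clone, small RNA and pseudogene symbols), every clock list member, up to 5 called members of each other list by p or the most abundant where none was called, and the 3 of smallest p for the genotype difference. Other list members named with a log2 fold change alone were chosen after their values were seen. The groups and lists were chosen with earlier results of these data known. Alternatives were other normalizations, filters, tools and sets of libraries. 26 table symbols turned into dates were left unnamed, and a few genes that the rule names are not reported here.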

Additional observations from a re-analysis of the deposited data

Results flagged for a closer look

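In 37 of 438 sets of 4 to 10 libraries, 1 library stood farther from its nearest neighbour, relative to the whole range, than Dixon's 95% critical value allows. That is 8.45%, where chance gives about 1 in 20 if the sets are independent. The 37 sets were all of the 5 ZT17 or the 6 ZT5 control libraries. They share libraries, and several hold lens genes of ZT17 replicate 5. In each set below the second range is that of the other libraries of the same time. ZT17 replicate 1 stood apart in normalized counts of Pdc (28001 against 22821 to 23802) and Sdf2l1 (67.1 against 103 to 112). ZT17 replicate 2 stood apart in normalized counts of Dyrk2 (2771 against 2413 to 2497) and Cys1 (231 against 289 to 307). ZT17 replicate 3 stood apart in normalized counts of Col19a1 (52.4 against 84.1 to 89.7), Ier2 (514 against 331 to 350.1) and Miat (383 against 319.7 to 329). ZT17 replicate 4 stood apart in normalized counts of Lss (748 against 871 to 921). ZT17 replicate 5 stood apart in normalized counts of Bhlhe41 (2229 against 2569 to 2633), Rpa2 (129 against 158 to 169.7), Cryaa (15239.5 against 1.60 to 164), Crybb1 (505 against 3.20 to 9.59), Crybb3 (412 against 4.80 to 11.1), Bfsp2 (129 against 3.70 to 11.5) and Bfsp1 (193 against 1.92 to 8.32). ZT5 replicate 1 stood apart in normalized counts of P4ha1 (941 against 1041 to 1078), Acadm (929.6 against 1153 to 1246), Ndufa10 (1218 against 1387 to 1481), Prpf31 (523 against 629 to 688), Dnajb1 (508 against 621 to 683), Slc7a1 (683 against 537 to 589) and Sag (37984 against 44758 to 47968). ZT5 replicate 3 stood apart in normalized counts of Nyx (439.9 against 379 to 398). ZT5 replicate 4 stood apart in normalized counts of Pdc (22384 against 16932 to 18881), Foxo1 (508 against 583 to 599.9) and mt-Co1 (99548 against 68916 to 75772). ZT5 replicate 5 stood apart in normalized counts of Gsk3b (4939 against 5543 to 5885), Rdh10 (506 against 617 to 641), Rdh8 (1172 against 1000.4 to 1051), Atg9a (660.5 against 555 to 587) and Cryaa (65.6 against 0 to 8.29). ZT5 replicate 6 stood apart in normalized counts of Mcm3 (17.3 against 32.7 to 36.1) and Crybb1 (8.63 against 1.80 to 4.08).

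For the summed lens markers, ZT17 replicate 5 was at 32779.6 and the rest of its group at 33.6 to 371. For the share of counts from mitochondrial transcripts, in percent, ZT5 replicate 4 was at 2.17 and the rest of its group at 1.45 to 1.61. For the GC trend (log2), ZT5 replicate 5 was at 0.12 and the rest of its group at -0.31 to -0.15. For the summed lens markers, ZT5 replicate 5 was at 164 and the rest of its group at 26.1 to 49.1.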

How the results depend on the processing

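Of 185 named genes that were called, 90 were called in all 26 alternatives and 95 lost the call in at least 1, 83 of them without ZT17 replicates 1 and 3, an alternative chosen after seeing the data. That alternative gave 467 higher and 446 lower genes and 112 called list members, against 268 in the full set, and together with the GC content and length correction 784, 703 and 164, with 2 genes for the genotype difference (Sdf2l1, Xbp1) and 2258 diabetic calls. Requiring also a minimum fold gave 778 higher genes and 169 list members. Lower genes numbered 936 without a filter, 878 in a fit of the 11 libraries and 956 after thinning to the depth of the smallest library. Diabetic calls numbered 1425 in the full set, 2186 after the correction and 948 after thinning. Leaving out 1 control library gave 704 to 1829 higher genes, 676 to 1872 lower genes, 139 to 316 list members, 0 to 1 genes for the genotype difference and 1379 to 1477 diabetic calls. The direction turned after the correction for Rora (0.16, and 0.15 with the block added), Prkaa1 (0.22 and 0.22) and Rian (0.046 and 0.10), and for Bfsp1 when single libraries were left out, from -0.17 without ZT17 replicate 5 to 3.13 without ZT17 replicate 1 (log2). The cause of these shifts was not tested, apart from fewer libraries or reads where some were removed. Replicate numbers did not pair the libraries: same-numbered libraries correlated between -0.34 and 0.46, over 0.1 in 1 of 5 pairs, and 1 ZT17 library correlated best with its own number. With the replicate number as a block, 2127 genes were higher and 1974 lower, 1 was called for the genotype difference (Creld2, 3 with the correction, Creld2, Asrgl1, Trim67, and 1 by DESeq2 without either), and diabetic calls with block and correction numbered 2479.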

Other observations

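Irf7 and Drd4, both among the 8 genes of largest rise with a call, a mean of at least 100 normalized counts and no overlap between the groups, lie on chromosome 7 with 25524 bases between the end of Irf7 (141266481) and the start of Drd4 (141292006). This was noticed after their values were seen. The end of Irf7 overlaps that of Phrf1 on the other strand, and whether reads were counted by strand is not given in the sources used here. Sct, next to Drd4, changed by 0.58 ± 0.42 on the log2 scale (SE, edgeR adjusted p = 0.352) at a mean of 6.83 normalized counts at ZT17 and 4.55 at ZT5. Deaf1 changed by 0.13 ± 0.08 (SE, edgeR adjusted p = 0.277) and Phrf1 by 0.12 ± 0.06 (SE, edgeR adjusted p = 0.153).

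Of 47 genes of autophagy and the lysosome, 9 were higher and 0 lower at ZT17 (19.1% called, against 15.1% of all genes), and 0 higher and 1 lower in the 9-library comparison. In the full set the p was smallest for Atg9a (0.28), Gabarap (0.42) and Ulk1 (0.40), with log2 fold changes in brackets. Calls in this list numbered 9 in all and 3 without ZT17 replicate 3 and 5 without ZT5 replicate 1 or 2. Of 36 proteasome subunits, 3 were higher and 2 lower at ZT17 (13.9% called, against 15.1% of all genes), and 0 higher and 0 lower in the 9-library comparison. In the full set the p was smallest for Psmc4 (0.30), Psmd13 (-0.28) and Psme1 (0.35), with log2 fold changes in brackets. With 1 library left out, the 5 calls became 2 without ZT17 replicate 1 or 3 or ZT5 replicate 1, 3 without ZT5 replicate 2, 3 or 6 and 8 without ZT17 replicate 2. Of 16 abundant nuclear long non-coding RNAs, 0 were higher and 5 lower at ZT17 (31.2% called, against 15.1% of all genes), and 0 higher and 1 lower in the 9-library comparison. In the full set the p was smallest for Snhg11 (-0.48), Rian (-0.32) and Snhg1 (-0.50), with log2 fold changes in brackets. These 5 calls changed to 2 without ZT17 replicate 1 or ZT5 replicate 2, 3 without ZT17 replicate 3 or ZT5 replicate 1, 8 without ZT5 replicate 5 and 9 without ZT17 replicate 2. After the GC content and length correction 1 of them was higher and 2 lower, Rian stood at 0.046 and Snhg1 was no longer called, at -0.30 (edgeR adjusted p = 0.0737). Of 23 genes of VEGF, angiopoietin and barrier signalling, 2 were higher and 1 lower at ZT17 (13% called, against 15.1% of all genes), and 0 higher and 0 lower in the 9-library comparison. In the full set the p was smallest for Flt1 (0.24), Lrp5 (0.39) and Kdr (-0.19), with log2 fold changes in brackets. When single libraries were removed the 3 calls became 1 without ZT17 replicate 3 and 6 without ZT17 replicate 2.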
